A study of Mus musculus with 24 samples.

Results

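Deletion of Rsf1 in mouse embryonic stem (ES) cells was compared with wild type (WT) cells of the same batch by mRNA sequencing, using 4 of the 24 libraries of the series. These were the 2 Rsf1Δ and the 2 WT libraries whose labels carry the batch letter A. The cells were of strain 129S6/SvEvTac and were grown in serum with LIF on gelatin. Rsf1 had been deleted with CRISPR–Cas9, delivered on a plasmid that also carried puromycin resistance, and 1 clone stood for the genotype after western blotting and DNA sequencing. WT libraries came from the parental cells. The other 20 libraries were WT cells of batches B to E (9 libraries), 2 WstfΔ libraries of batch A and deletions of other subunits. Because 1 clone was sequenced, what the deletion changed and what this clone carried besides it cannot be told apart. The p-values rest on a spread between libraries that is shared over all 24 libraries, and they do not measure the spread between clones. The methods of the study call its RNA replicates independent, and its reporting summary names biological replicates for all experiments. Neither says whether they were separate cultures.

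RSF1 pairs with the ATPase SNF2H (gene Smarca5) to form RSF, one of the ISWI chromatin remodellers, which slide and space nucleosomes along DNA. ISWI complexes are told apart by the large subunit that accompanies the ATPase: WSTF (gene Baz1b), ACF1 (Baz1a), TIP5 (Baz2a), CECR2, BPTF or RSF1. ES cells in serum with LIF are a mixed culture in which most cells hold the pluripotency network and a minority express genes of primitive endoderm, trophectoderm or mesenchyme. In such bulk RNA, fewer cells of a type and less RNA per cell cannot be told apart, and this holds for every lineage gene below.

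The 4 libraries held 24711280 and 22854001 counts (WT) and 23140911 and 24298767 counts (Rsf1Δ). Levels are given as CPM, counts scaled to a common effective library size (TMM), in the order WT replicate 1, WT replicate 2, Rsf1Δ replicate 1, Rsf1Δ replicate 2, and fold changes are log2 values from the edgeR fit with their standard error (SE). A gene was called differentially expressed (DEG) when its absolute log2 fold change was above 1 and its Benjamini–Hochberg adjusted p was below 0.01.

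The labels name poly(A) RNA for all 24 libraries, and the 4 libraries of batch C (WT and BptfΔ) went against this. The 3 tested genes of a list of RNAs without a poly(A) tail summed to 3955 to 5535 CPM in batch C and to 0.258 to 5.79 CPM in the other 20 libraries (0.258 to 0.651 CPM in the 4 compared here). Replication-dependent histone genes, whose mRNAs also lack the tail, summed to 4502 to 6405 CPM in batch C and 72.2 to 152 CPM in the others. Counts that use the WT libraries of other batches are therefore given with and without batch C. A fit without batch C gave 875 DEGs (121 increased, 754 decreased), of which 853 were among the 927 described below.

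The targeted transcript was lower in the libraries labelled Rsf1Δ. Rsf1 (Entrez 233532, chr7:97579870-97692782 in mm10) stood at 104 and 117 CPM in WT and at 23.2 and 22.9 CPM in Rsf1Δ, or 110.6 ± 8.9 and 23.04 ± 0.22 (SD, n = 2). The groups did not overlap, and both Rsf1Δ values lay below the 85.1 to 123 CPM of the 9 WT libraries of other batches. The decrease was 4.80-fold (log2 fold change −2.26, SE 0.09, adjusted p = 3.39e-17), and reads remained on the gene in both Rsf1Δ libraries. Rsf1os2, a non-coding RNA that overlaps the gene, decreased with it (log2 fold change −1.04, adjusted p = 1.84e-04), and the reads of the pair may not be separable because the strand setting of the counting is not given in the sources used here. None of the protein-coding neighbours Ndufc2, Thrsp, Ints4, Aamdc, Clns1a, Aqp11 and Pak1 was a DEG, with log2 fold changes from 0.04 to 0.39.

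Of the 13 ISWI genes tested, Rsf1 was the 1 DEG. Smarca5, the ATPase that RSF1 binds, had a log2 fold change of −0.02 with means of 300 CPM in WT and 296 CPM in Rsf1Δ. Below the fold minimum, 3 others passed an adjusted p of 0.01. Baz1a, the ACF1 subunit, stood at 70.5 and 76.9 CPM in WT and 45.2 and 49.3 CPM in Rsf1Δ (log2 fold change −0.64, adjusted p = 8.76e-09), below the 61.8 to 80.5 CPM of the other WT libraries. Baz2b had a log2 fold change of 0.61 (adjusted p = 8.99e-07), with Rsf1Δ inside the range of the other WT libraries (28.3 to 53.7 CPM), and the histone chaperone gene Rbbp4 one of 0.22 (adjusted p = 0.00409).

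Across 15682 genes tested, 927 were DEGs (5.91%). Of these, 825 were decreased (5.26% of the genes tested) and 102 were increased (0.65%). The 825 decreased genes split into 4 genes of the Y chromosome, 15 genes of a run on chromosome 6 (chr6:70765720-73276907), and 806 genes elsewhere. The median log2 fold change of all genes was 0.0013, a value that TMM scaling sets near 0. The genes decreased elsewhere fell by a median of 2.98-fold, 216 of them more than 4-fold and 46 more than 8-fold. The increased genes rose by a median of 2.39-fold, 11 of them more than 4-fold. Both sets lay below the typical level, with median WT values of 5.83 CPM (decreased elsewhere) and 2.23 CPM (increased) against 18.97 CPM over all genes tested.

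The WT libraries of batch A themselves stood apart from the other WT libraries for many of these genes. Among the 806 genes, 355 (44.0%) had both batch A WT libraries above all 9 WT libraries of batches B to E. The share over all genes tested was not taken for this count. These genes were picked for a batch A WT level above Rsf1Δ, so part of the count can follow from the choice. The Rsf1Δ mean was below all 11 WT libraries for 321 of the 806 genes (39.8%), against 8.16% of all genes tested, and above all 11 for 63 of the 102 increased genes (61.8%), against 6.94% of all genes. Without the batch term, which sets Rsf1Δ against all 11 WT libraries, 134 genes were DEGs, 102 decreased and 32 increased. With the 7 other WT libraries that remain without batch C, 373 of the 806 genes (46.3%) had both batch A WT libraries above the rest, again with no share over all genes taken. The Rsf1Δ mean was then below all 9 WT libraries for 356 (44.2%, against 11.04% of all genes tested) and above them for 66 of the 102 increased genes (64.7%, against 10.13%). Without the batch term and batch C, 168 genes were DEGs. The part of the batch A WT level in the decreases was not tested, and the place of Rsf1Δ among the other WT libraries is given for most of the decreased and increased genes described with their levels.

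**Figure D1:**
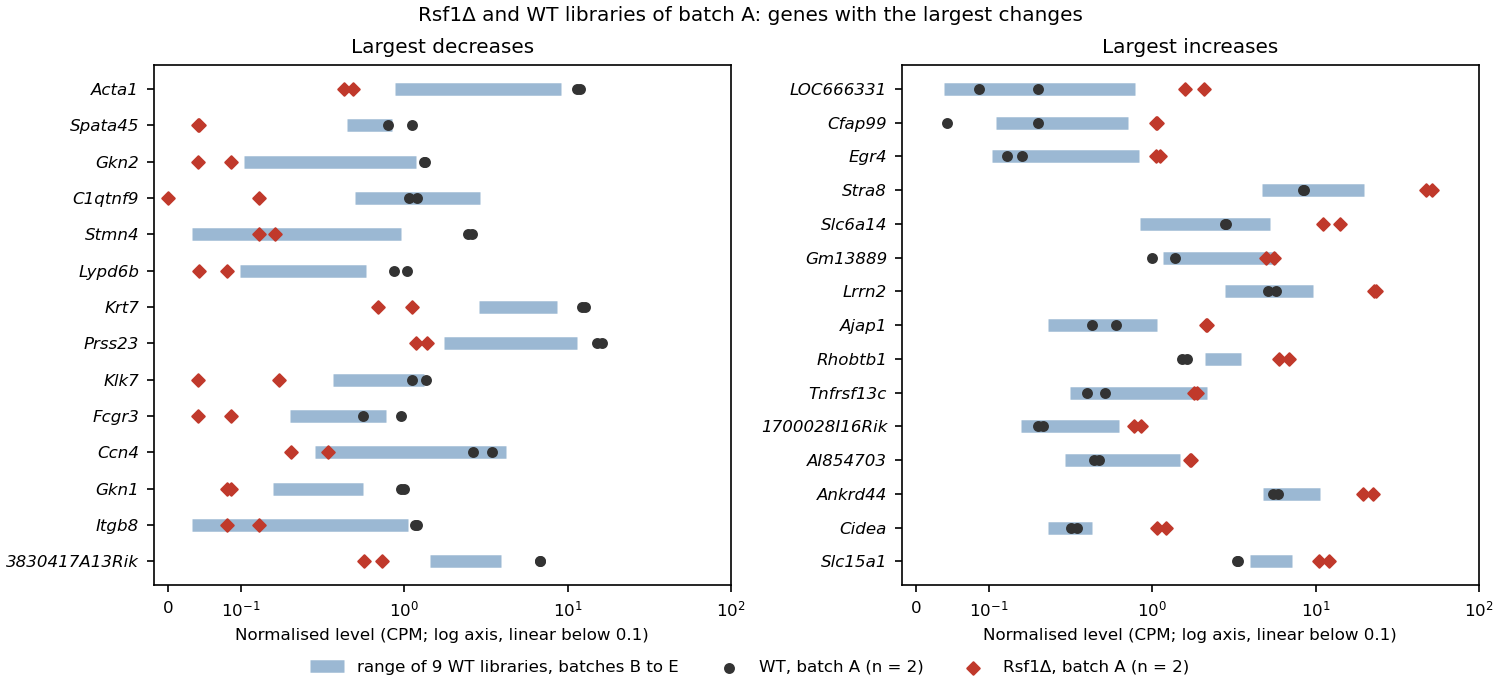
Normalised level (CPM, log axis that is linear below 0.1) of genes with the largest decrease (left, 14 drawn) and the 15 genes with the largest increase (right) among those averaging at least 10 counts, leaving out Y-linked genes and the chromosome 6 run. Black circles are the 2 WT libraries of batch A, red diamonds the 2 Rsf1Δ libraries and blue bars the range of the 9 WT libraries of other batches. The 2 groups of batch A are apart in every row, and for genes such as Stmn4 and Itgb8 the bar reaches down to the Rsf1Δ values.

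The 15 largest decreases by log2 fold change were taken among genes averaging at least 10 counts. Acta1, skeletal muscle actin, stood at 11.9 and 11.4 CPM in WT and 0.429 and 0.489 CPM in Rsf1Δ (log2 fold change −4.65, SE 0.24, adjusted p = 2.73e-14). The other WT libraries reached from 0.883 to 9.17 CPM, so both Rsf1Δ libraries lay below them all. Prss23, a secreted serine protease, fell from 16.3 and 15.2 CPM to 1.37 and 1.18 CPM (log2 fold change −3.62, SE 0.20). Prss23 in Rsf1Δ was also below the other WT libraries, which began at 1.76 CPM. Stmn4, a microtubule-binding stathmin of neurons, stood at 2.59 and 2.45 CPM against 0.129 and 0.163 CPM (log2 fold change −4.06, SE 0.46), and here the Rsf1Δ values were inside the range of the other WT libraries (0.0325 to 0.959 CPM). Gkn1 and Gkn2, which encode gastrokines of the stomach lining, C1qtnf9, Klk7, Fcgr3, Ccn4 and the integrin subunit Itgb8 were also among the 15 largest decreases, as was Spata45 (log2 fold change −4.36, SE 0.65, adjusted p = 8.63e-06), and most of them rested on WT values near or below 4 CPM. Without Rsf1Δ replicate 2 Itgb8 lost its call (adjusted p = 0.0114).

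Counted by gene list, the decreases were spread over several lineages that differ from the pluripotent state. Against the 5.26% of all genes decreased, the lineage and signalling lists with the highest shares were those of fibroblast and mesenchyme (11 of 16 tested), primitive endoderm transcription factors (9 of 13), parietal endoderm and basement membrane (12 of 20), trophectoderm factors and simple keratins (9 of 17) and YAP/SRF targets with the contractile apparatus (12 of 23). None of these 5 lists held an increased DEG. Other lists and families, given with their counts below, also had shares above 30%, among them visceral endoderm, keratins, laminins, collagens and serpins. When the fold minimum itself was tested (glmTreat), the counts of these 5 lists were 6, 2, 12, 6 and 10, in the order given, and the visceral endoderm count was 1. No set test was run, and the lists were drawn up with results of these data known, so the counts describe them and support nothing beyond that.

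**Figure D2:**
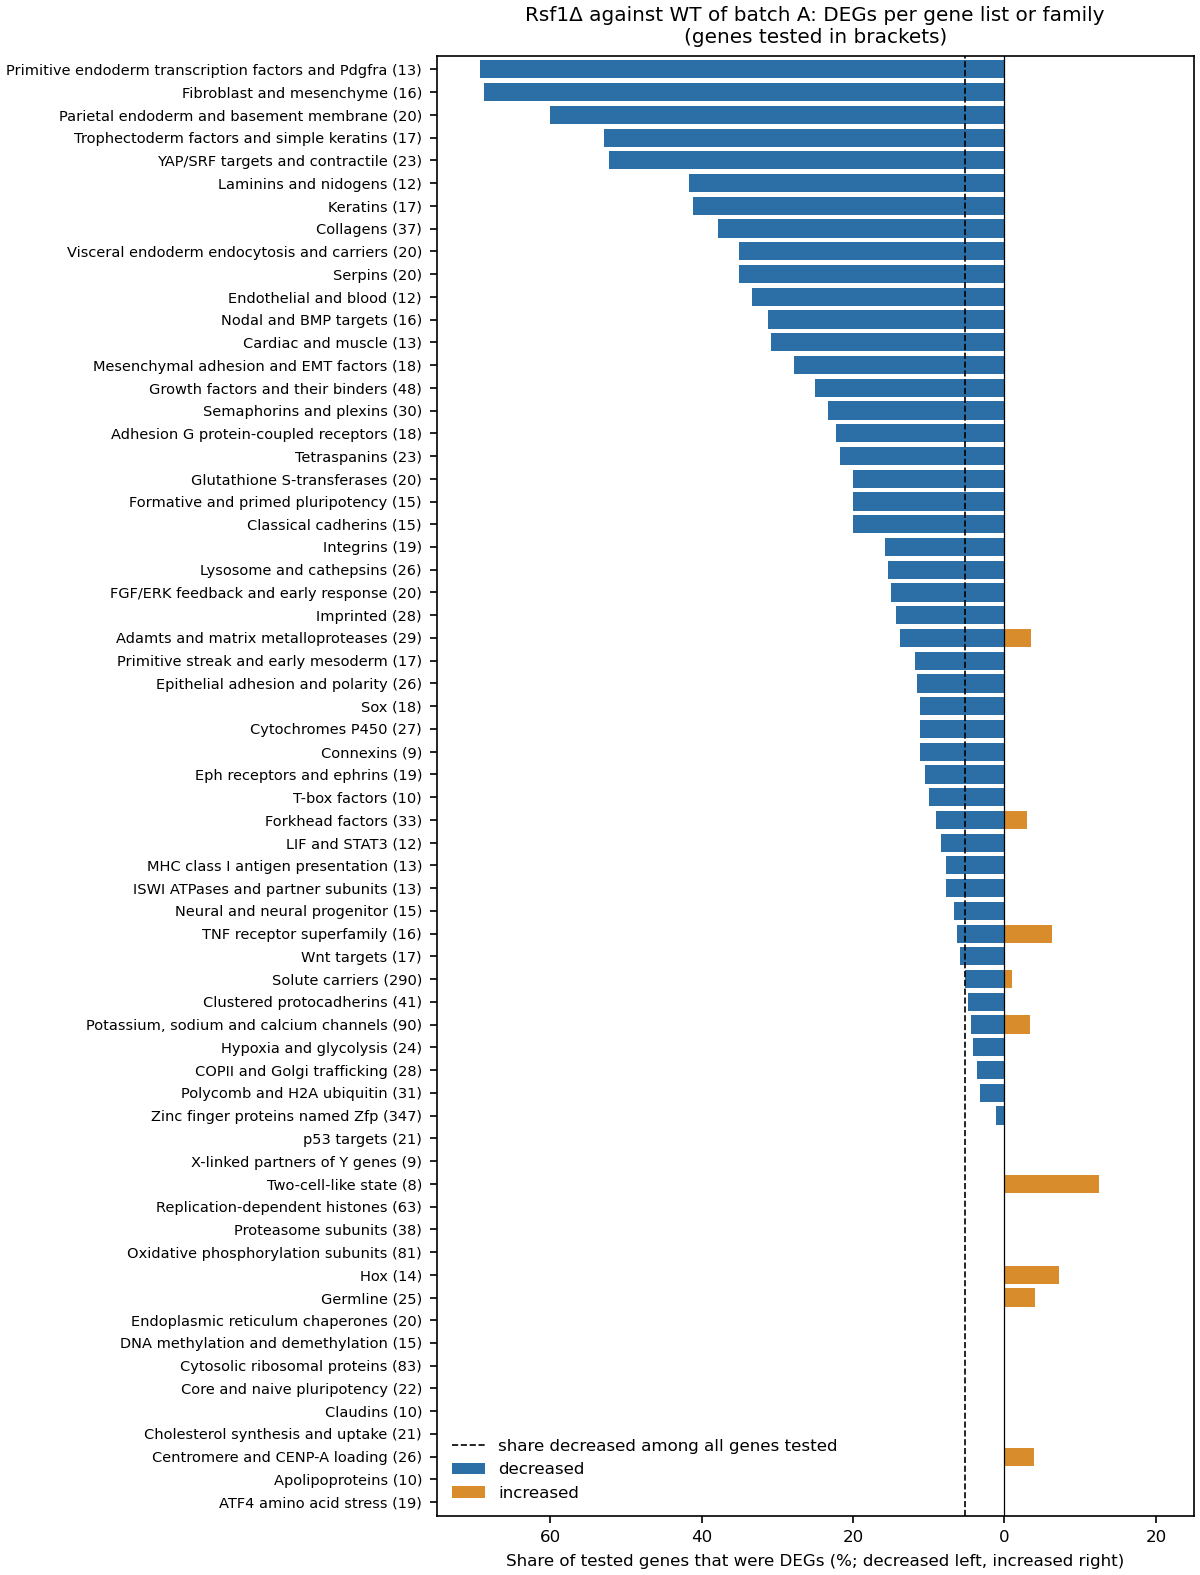
Share of tested genes (%) that were decreased (blue, to the left) or increased (orange, to the right) DEGs in each gene list or family with at least 8 tested genes, with the number tested in brackets. The dashed line marks the 5.26% decreased among all genes tested, and the lists of endoderm, mesenchyme, trophectoderm and matrix lie to its left. The formative and primed pluripotency list, with 3 of 15 genes decreased, also reaches past the line. The core and naive pluripotency, ribosomal, oxidative phosphorylation, proteasome and histone lists have no bar.

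Primitive endoderm, the extraembryonic layer that lines the blastocyst cavity, is specified by GATA factors and depends on signalling through the receptor PDGFRA. Gata4 stood at 97.1 and 100 CPM in WT and 40.9 and 38.3 CPM in Rsf1Δ (log2 fold change −1.32, SE 0.11, adjusted p = 5.33e-10). Pdgfra fell from 43.8 and 49.4 CPM to 16.2 and 16.3 CPM (log2 fold change −1.52, SE 0.11, adjusted p = 1.09e-11). Sox17, an endoderm transcription factor, fell from 19.9 and 18.4 CPM to 7.69 and 7.25 CPM (log2 fold change −1.36, SE 0.14, adjusted p = 9.55e-09). For each of these 3 genes the batch A groups were well apart, and the Rsf1Δ values lay inside the range of the other WT libraries, which for Gata4 was 22.97 to 110 CPM. Cited1, a transcriptional co-activator, went lower, from a mean of 6.58 to 1.505 CPM against 1.68 to 4.79 CPM in the other WT libraries. Foxa2, a forkhead factor of endoderm, was decreased 2.63-fold, to 3.61 and 2.81 CPM at the low end of the other WT libraries (3.29 to 7.74 CPM). Sox7 missed the fold minimum at a log2 fold change of −0.69. Sall3, another transcription factor gene of the list, went the other way, from 7.86 and 7.41 CPM to 15.2 and 15.1 CPM (log2 fold change 0.98, adjusted p = 4.42e-05), inside the 5.02 to 22.3 CPM of the other WT libraries, and was an increased DEG without WT replicate 1 (log2 fold change 1.03). The median over the 13 genes was −1.22, and 2 of the 9 decreased genes had Rsf1Δ means below all 11 WT libraries.

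Parietal endoderm lays down Reichert's membrane, a thick basement membrane built of type IV collagen and laminin, and both were decreased. Col4a1 stood at 1745 and 1886 CPM in WT and 458 and 465 CPM in Rsf1Δ (log2 fold change −1.98, SE 0.10, adjusted p = 1.05e-14). Its partner chain Col4a2, which is transcribed from the same promoter region in the opposite direction, went from 750 and 803 CPM to 195 and 197 CPM with the same log2 fold change of −1.98. Lama1, the laminin alpha chain of early embryos, went from 1192 and 1575 CPM to 376 and 435 CPM (log2 fold change −1.77, SE 0.12), with the WT replicates further apart from each other than those of the collagens. The other WT libraries spanned 386 to 1800 CPM for Col4a1, 177 to 791 CPM for Col4a2 and 365 to 1520 CPM for Lama1, so the Rsf1Δ level lay within the WT range across batches. Thbd (thrombomodulin), Plat (tissue plasminogen activator) and Srgn (serglycin), known products of parietal endoderm, were decreased by 4.15-fold, 4.10-fold and 3.46-fold, with Rsf1Δ means inside the range of the other WT libraries for all 3. Lamc1 was just short of a call at a log2 fold change of −0.97 and gained one without Rsf1Δ replicate 2 (−1.04) or WT replicate 1 (−1.08), and Nid2 and Hspg2, other basement membrane genes, had values of −0.34 and −0.66. Hspg2, whose WT replicates stood at 357 and 620 CPM, gained a call without WT replicate 1 (log2 fold change −1.002, adjusted p = 0.00113). The visceral endoderm list, genes of uptake and transport at the yolk sac surface, had 7 of 20 genes decreased, and 4 without WT replicate 2. The endocytic receptor genes Cubn, Amn, Lrp2 and Dab2 were among them, with log2 fold changes of −1.26, −1.31, −1.17 and −1.18. The Rsf1Δ means of Cubn, Lrp2 and Dab2 lay inside the range of the other WT libraries, and that of Amn just below it (2.12 CPM against a lowest value of 2.14 CPM). The WT replicates differed for Cubn (77.5 and 121 CPM) and Lrp2 (150 and 260 CPM), and without WT replicate 2 both lost their calls, at log2 fold changes of −0.90 and −0.73. Amn lost its call without Rsf1Δ replicate 2 (adjusted p = 0.021). Apoe, an apolipoprotein gene, was lower by less than the fold minimum (−0.53).

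Of 17 keratin genes tested, 7 were decreased, and of the 17 of the trophectoderm list 9 were, with some genes in both. Krt8 and Krt18, which encode the keratin pair of simple epithelia, stood at 182 and 181 CPM and at 196 and 190 CPM in WT. In Rsf1Δ they stood at 33.1 and 32.5 CPM and at 29.5 and 29.1 CPM. Their log2 fold changes were −2.47 (SE 0.09, adjusted p = 5.84e-18) and −2.72 (SE 0.09, adjusted p = 4.54e-18), and the lowest of the other WT libraries were at 35.9 and 37.0 CPM. Krt19, a further simple keratin, fell from 30.9 and 31.7 CPM to 3.78 and 3.99 CPM, with the other WT libraries at 7.74 to 21.3 CPM. Krt7 fell from 12.2 and 12.8 CPM to 1.12 and 0.692 CPM (13.8-fold, adjusted p = 1.54e-11), with the other WT libraries at 2.89 to 8.62 CPM. Krt42 was the exception to the batch A pattern: its WT values of 19.3 and 17.8 CPM lay at the lower end of or below those of the other WT libraries (19.2 to 34.9 CPM), and Rsf1Δ stood at 3.65 and 3.42 CPM, below them all. All 7 decreased keratin genes had Rsf1Δ means below the 11 WT libraries, and 8 of the 9 decreased genes of the trophectoderm list did (7 and 9 without batch C). Keratin genes have close relatives and pseudogenes, and how reads that map to several places were counted is not given, so single keratin levels are uncertain. Tfap2c, Tead4 and Peg10, which act in trophoblast, were lower by less than the fold minimum (log2 fold changes of −0.63, −0.85 and −0.83).

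The Rhox genes are X-linked homeobox genes of placenta and gonad, and 3 of the 6 tested were decreased. Rhox5, the founding member, stood at 90.3 and 87.1 CPM in WT and 11.8 and 13.2 CPM in Rsf1Δ (log2 fold change −2.83, SE 0.11, adjusted p = 5.89e-17). Both Rsf1Δ libraries were far below the 59.0 to 124 CPM of the other WT libraries, whose range holds the batch A WT values. Rhox6 fell from 8.78 and 9.73 CPM to 0.773 and 1.42 CPM, and Rhox9 from 5.15 and 6.03 CPM to 0.859 and 0.896 CPM. All 3 also lay below all 11 WT libraries, and all 3 were DEGs without the batch term. Rhox genes are a tandem family of near copies, so reads could be shared among them.

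**Figure D3:**
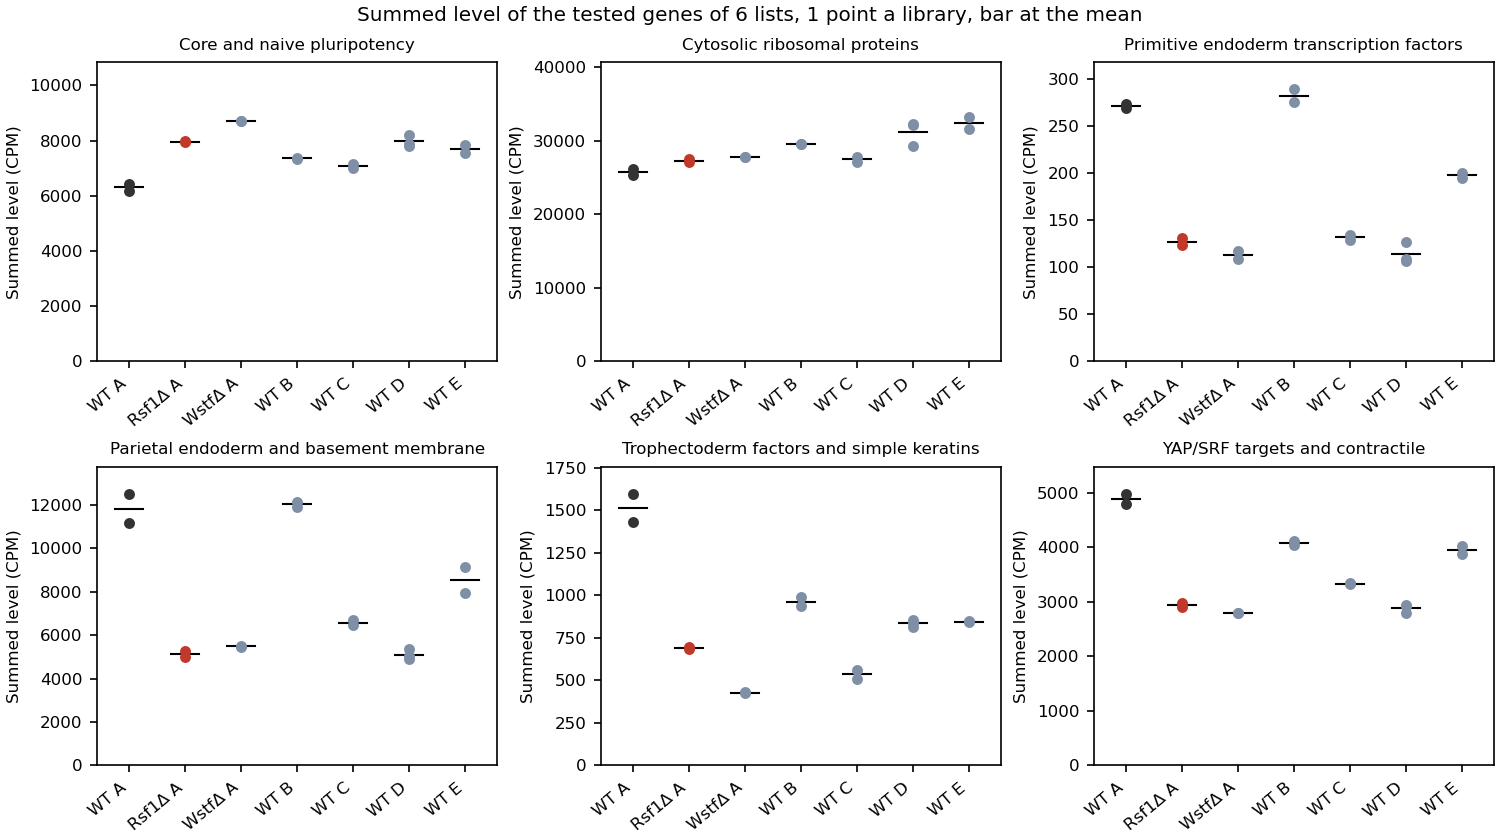
Summed level (CPM, linear axis from 0) of the tested genes of 6 lists in each WT, Rsf1Δ and WstfΔ library, with a bar at the mean of the 2 or 3 libraries of a group. The Rsf1Δ sums of the endoderm, trophectoderm and contractile lists are below those of batch A WT, and WT of batches C and D overlap or come close to Rsf1Δ for endoderm and contractile genes. For the trophectoderm list WT of batch C (506 and 563 CPM) lies below Rsf1Δ (683 and 696 CPM). The pluripotency sum is lowest in batch A WT and the ribosomal sums run from 25347 CPM in a batch A WT library to 33275 CPM in a WT library of batch E.

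The summed levels show how the WT batches lie around these values. The parietal endoderm genes summed to 11158 and 12525 CPM in WT of batch A and 4979 and 5271 CPM in Rsf1Δ, while the other WT libraries ran from 4915 to 12140 CPM. The contractile list summed to 4796 and 4984 CPM against 2909 and 2971 CPM, with 2796 to 4114 CPM in the other WT libraries. The trophectoderm list summed to 1431 and 1597 CPM against 683 and 696 CPM, with 506 to 989 CPM in the other WT libraries, where the 2 of batch C lay below Rsf1Δ and the other 7 above it. The keratin family differed: its Rsf1Δ sums of 81.0 and 78.7 CPM were below the whole range of the other WT libraries (145 to 369 CPM) as well as the 464 and 456 CPM of batch A WT. The Rhox family did likewise, at 18.9 and 20.8 CPM against 79.0 to 146 CPM. Without the batch term no gene of the primitive, parietal or visceral endoderm, fibroblast or YAP/SRF lists was a decreased DEG, whereas 3 keratin genes were. Leaving out batch C as well, the endoderm, fibroblast and YAP/SRF lists again had 0, and 4 keratin genes were decreased DEGs.

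Among genes that respond to YAP with TEAD factors or to SRF, many of which build the actin cytoskeleton, 12 of 23 were decreased, with a median log2 fold change of −1.44 over the list. Acta2, smooth muscle actin, stood at 33.7 and 35.5 CPM in WT and 4.04 and 4.32 CPM in Rsf1Δ (log2 fold change −3.05, SE 0.14, adjusted p = 2.78e-15). Thbs1, the matrix protein thrombospondin 1, went from 118 and 134 CPM to 15.1 and 15.8 CPM (log2 fold change −3.02, SE 0.12, adjusted p = 8.16e-17). Ankrd1, a nuclear ankyrin repeat protein widely used as a YAP readout, went from 38.2 and 43.7 CPM to 5.84 and 6.07 CPM (log2 fold change −2.78, SE 0.12). In all 3 the replicates lay close together and the groups far apart. Tagln (transgelin) fell from 118 and 119 CPM to 19.9 and 21.3 CPM, and Cnn1 (calponin) from 7.94 and 8.74 CPM to 1.37 and 1.75 CPM. Tpm1, tropomyosin 1, fell from 288 and 295 CPM to 82.9 and 73.8 CPM (log2 fold change −1.89, SE 0.08). The decrease did not cover the whole list: Ajuba stood at 452 and 452 CPM against 461 and 452 CPM, and Flna and Actn1 had log2 fold changes of −0.44 and −0.50. Of the 12 decreased genes, 1 had an Rsf1Δ mean below all 11 WT libraries. The Rsf1Δ means of the 6 genes given with their levels here all lay inside the range of the other WT libraries, whose lowest values were 4.13 CPM for Acta2, 15.4 CPM for Thbs1, 3.94 CPM for Ankrd1, 12.8 CPM for Tagln, 1.17 CPM for Cnn1 and 77.1 CPM for Tpm1. Actin genes share long stretches of sequence, so the split of reads among Acta1, Acta2 and Actc1 is uncertain.

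The promoters of 4 of these genes are shown because YAP acts through TEAD factors, which recognise the letters GGAATG (the core of the MCAT element), and because SRF recognises the CArG box. The sequences are from RefSeq on GRCm38.p6 and give the 150 bases before the annotated transcription start, read 5′ to 3′ on the strand of the gene, with GGAATG on either strand in capitals. Acta2 lies at chr19:34255374-34255523 on the minus strand, Ankrd1 at chr19:36119845-36119994 on the minus strand, Tpm1 at chr9:67049214-67049363 on the minus strand and Cnn1 at chr9:22099103-22099252 on the plus strand.
Acta2: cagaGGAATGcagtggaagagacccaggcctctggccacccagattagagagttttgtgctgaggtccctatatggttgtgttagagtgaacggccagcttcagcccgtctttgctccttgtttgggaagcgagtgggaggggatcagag
Ankrd1: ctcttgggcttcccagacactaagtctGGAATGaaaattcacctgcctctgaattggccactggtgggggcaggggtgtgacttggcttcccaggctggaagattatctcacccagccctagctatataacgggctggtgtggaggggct
Tpm1: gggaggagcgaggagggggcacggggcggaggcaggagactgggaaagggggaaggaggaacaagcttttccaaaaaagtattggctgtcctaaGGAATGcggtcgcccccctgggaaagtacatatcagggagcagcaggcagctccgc
Cnn1: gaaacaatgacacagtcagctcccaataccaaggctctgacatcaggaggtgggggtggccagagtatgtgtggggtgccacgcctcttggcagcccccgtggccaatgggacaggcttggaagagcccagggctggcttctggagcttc
Acta2, Ankrd1 and Tpm1 hold the letters in this window, at 146, 123 and 56 bases before the start, and Cnn1 does not. In the 300-base windows from 250 bases before to 50 bases after the start, a promoter sequence was at hand for 19 of the 23 tested genes of the list, and 11 of these held GGAATG on either strand (57.9%), against 12.2% of the promoters of all 12223 tested genes with a sequence. A CArG box, counted only in the strict form with A or T alone between CC and GG, was found in 4 of 19 (21.1%) against 1.30%. Near matches with a G or C among the middle letters, such as those in the Acta2 window shown, were not counted. Of the 9 decreased genes with a sequence, 5 held GGAATG (55.6%) and 2 held a CArG box. The list was made of known targets of these factors, so a higher share of their letters than in all promoters follows from the choice, and a match is not a bound site. Thbs1 and Tagln had no sequence at hand.

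Fibroblast and mesenchyme genes had the lowest median log2 fold change of these lineage lists (−2.09 over 16 genes, 11 decreased). Col1a1, the chain of type I collagen, stood at 7.78 and 8.23 CPM in WT and 1.37 and 1.55 CPM in Rsf1Δ (log2 fold change −2.45, SE 0.23, adjusted p = 2.68e-09). The Col1a1 values of Rsf1Δ were inside the 1.28 to 16.7 CPM of the other WT libraries, but below them once batch C was left out (1.98 to 16.7 CPM). Col3a1 and Col6a1 decreased from lower levels of 1.16 and 0.722 CPM. Both lost their calls without Rsf1Δ replicate 2 (adjusted p = 0.0173 and 0.014), and Col6a1 also without Rsf1Δ replicate 1 (0.0461) or WT replicate 1 (0.0213). Fn1, fibronectin, was not among the decreased genes: it stood at 752 and 999 CPM in WT and 958 and 1072 CPM in Rsf1Δ, with groups that overlap. Thy1 had a log2 fold change of 0.01, and Tgfbi was higher by 0.59. Over the collagen family as a whole, 14 of 37 genes were decreased (8 without WT replicate 2) with a median log2 fold change of −0.95, and the summed level went from 3266 and 3489 CPM to 1244 and 1267 CPM, within the 1151 to 3281 CPM of the other WT libraries. The laminin and nidogen family had 5 of 12 genes decreased. In muscle, the cardiac actin gene Actc1 and the troponin gene Tnnt2 decreased from below 1 CPM, and 4 of 13 cardiac and muscle genes were decreased in all. Without Rsf1Δ replicate 1 both lost their calls (adjusted p = 0.0117 and 0.0218), and Actc1 also without Rsf1Δ replicate 2 (0.0142). In the endothelial and blood list 4 of 12 were decreased, led by Cdh5 (VE-cadherin), which fell from 8.66 and 8.91 CPM to 1.46 and 1.63 CPM, below the other WT libraries (2.101 to 8.59 CPM), while Pecam1, another endothelial adhesion gene that ES cells express, stood at means of 79.0 and 79.6 CPM. The neural list held 1 DEG of 15 genes (6.67%, against 5.26% of all genes decreased) and had a median log2 fold change of 0.13. At an adjusted p below 0.01 with no fold minimum, 3 of its genes were higher and 2 lower (7.45% and 13.1% of all genes tested). The DEG was Nes (nestin), decreased 3.73-fold. It stood at 77.6 and 87.6 CPM in WT and 21.9 and 22.4 CPM in Rsf1Δ, and the other WT libraries, at 18.8 to 44.6 CPM, held the Rsf1Δ values and lay below both batch A WT libraries.

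Genes for proteins with a signal-like start, a hydrophobic stretch near the amino end such as directs proteins into the secretory pathway, held a larger share of decreased genes than the rest, described here without a test. Leaving out Y-linked genes and the chromosome 6 run, 304 of 2552 such genes were decreased (11.9%), against 476 of 11937 genes without one (3.99%). The stretch was predicted from the translated reference transcripts as a 10-residue window of high hydropathy in the first 30 residues, which also takes in some membrane proteins. Since the decreased genes lie at low levels, the shares were also taken within classes of the WT level. The share was 19.98% against 10.84% between 1 and 10 CPM, 9.61% against 2.48% between 10 and 100 CPM and 9.09% against 1.06% above 100 CPM. Below 1 CPM it was 4.73% against 2.29%. In every class it was higher with a signal-like start, and above 100 CPM the decreased genes include Col4a1, Col4a2, Lama1, Serpinh1 and Ctsl. Increased genes made up 0.784% of the genes with and 0.586% of the genes without a signal-like start.

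**Figure D4:**
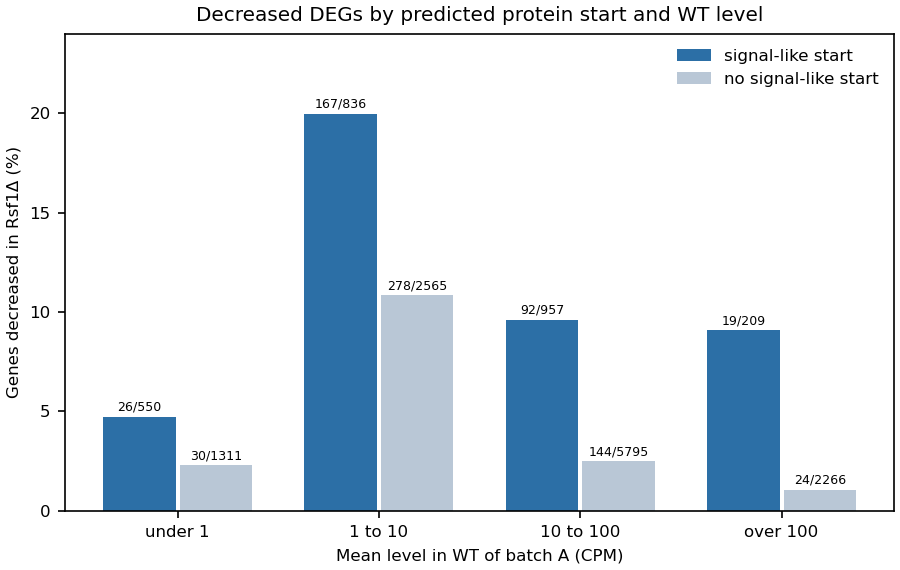
Share of tested genes decreased in Rsf1Δ (%, axis from 0) among genes with a predicted signal-like protein start (dark) and without (light), in 4 classes of mean WT level of batch A (CPM). The numbers above the bars are decreased genes over genes tested, and the dark bar is the taller one in each class, with 19 of 209 against 24 of 2266 above 100 CPM. Y-linked genes and the chromosome 6 run are left out.

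Among secreted proteins and their helpers, serpins, matrix proteases and lysosomal enzymes held further DEGs. Serpinb9b, a member of the clade of intracellular serpins, stood at 23.98 and 22.4 CPM in WT and 3.95 and 4.48 CPM in Rsf1Δ. Both Rsf1Δ values were below the other WT libraries (8.19 to 13.4 CPM). Serpinh1, the collagen chaperone HSP47, fell from 442 and 409 CPM to 173 and 161 CPM (log2 fold change −1.35, SE 0.07, adjusted p = 3.60e-14), inside the 149 to 501 CPM of the other WT libraries. In all, 7 of 20 serpin genes were decreased. Adamts9, a matrix metalloprotease, went from 125 and 140 CPM to 27.9 and 32.6 CPM, below the 37.7 CPM that was the lowest of the other WT libraries. The Adamts and matrix metalloprotease family had 4 decreased genes (2 without WT replicate 1) and 1 increased gene of 29. The increased gene was Mmp11 (stromelysin 3), at 33.1 and 32.3 CPM in WT and 69.6 and 66.4 CPM in Rsf1Δ (log2 fold change 1.05, adjusted p = 3.09e-06), inside the 39.04 to 84.4 CPM of the other WT libraries. The lysosome list had 4 of 26 genes decreased. Ctsl (cathepsin L) stood at 514 and 487 CPM against 226 and 224 CPM, inside the 148 to 658 CPM of the other WT libraries. The protease genes Lgmn and Ctsh decreased 2.69-fold and 5.86-fold, with Rsf1Δ means below all 11 WT libraries. Of 20 endoplasmic reticulum chaperone genes, 15 were lower and 0 higher at an adjusted edgeR p below 0.01 with no fold minimum, where 13.1% of all genes tested were lower and 7.45% higher. None of the 20 passed the fold minimum by edgeR or DESeq2, and the median log2 fold change was −0.35. At an unadjusted p under 0.05, where 21.8% of all genes tested were lower and 17.6% higher, 16 were lower and 0 higher. Of 28 COPII and Golgi trafficking genes, 1 was a decreased DEG (3.57%, against 5.26% of all genes tested). At an adjusted p below 0.01 with no fold minimum, 9 of the 28 were lower and 0 higher, beside the 13.1% and 7.45% of all genes.

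At the cell surface, Anxa2 (annexin A2) stood at 177 and 176 CPM in WT and 40.7 and 38.2 CPM in Rsf1Δ (log2 fold change −2.16, SE 0.07, adjusted p = 3.73e-18), below the 44.2 to 122 CPM of the other WT libraries. Cd44, the hyaluronan receptor, went from 9.57 and 12.2 CPM to 1.85 and 1.83 CPM. Its Rsf1Δ values lay inside the range of the other WT libraries (1.55 to 5.89 CPM), and both batch A WT libraries lay above that range. Against 5.26% of all genes, the tetraspanins had 5 of 23 genes decreased, the semaphorins and plexins 7 of 30, the adhesion G protein-coupled receptors 4 of 18, the integrins 3 of 19 (1 without Rsf1Δ replicate 2) and the classical cadherins 3 of 15, while 0 of 10 claudins were DEGs by edgeR or DESeq2 (3 lower and 0 higher at an adjusted p below 0.01, 4 lower and 1 higher at an unadjusted p under 0.05). With the fold minimum itself tested, the tetraspanin, adhesion receptor and integrin counts were 0, the semaphorin and plexin count 2 and the cadherin count 1. The solute carriers, the largest membrane family counted, had 15 decreased and 3 increased genes of 290 tested, a decreased share at the background of all genes. Slc4a5, a bicarbonate cotransporter, fell from 22.2 and 21.3 CPM to 3.56 and 4.64 CPM against 14.2 to 29.1 CPM in the other WT libraries. Slc34a2, a phosphate transporter, was decreased 4.38-fold, also to below the other WT libraries. Slc6a14, an amino acid transporter, and Slc15a1, a peptide transporter, rose, from 2.83 and 2.799 CPM to 14.1 and 11.2 CPM and from 3.35 and 3.32 CPM to 10.48 and 12.1 CPM, both above all 11 WT libraries. Ion channel genes were also mixed, with 4 decreased and 3 increased of 90.

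Of 48 growth factors and their binding proteins, 12 were decreased, with a median log2 fold change of −0.49. Igf2, the imprinted growth factor of embryo and placenta, stood at 91.7 and 94.2 CPM in WT and 16.6 and 14.9 CPM in Rsf1Δ (log2 fold change −2.56, SE 0.11, adjusted p = 3.19e-16). H19, the non-coding RNA next to Igf2 that is expressed from the other parental allele, fell from 190 and 191 CPM to 42.4 and 39.6 CPM (log2 fold change −2.22, SE 0.08). The H19 values of Rsf1Δ were below the other WT libraries (94.3 to 127 CPM), those of Igf2 were not (8.98 to 49.97 CPM), although they were once batch C was left out (34.5 to 49.97 CPM). They were 2 of the 4 decreased genes among 28 imprinted genes. Csf1, the macrophage colony-stimulating factor, went from 20.1 and 22.9 CPM to 3.65 and 3.09 CPM, and Bmp2 from 7.98 and 8.23 CPM to 2.92 and 1.63 CPM. For both the Rsf1Δ mean lay inside the range of the other WT libraries (3.21 to 22.1 CPM for Csf1 and 1.85 to 6.21 CPM for Bmp2), and for Bmp2 both batch A WT libraries lay above it.

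Among Nodal and BMP targets 5 of 16 were decreased. Lefty2 and Lefty1, secreted inhibitors that Nodal induces, stood at 22.1 and 21.4 CPM and at 33.0 and 29.5 CPM in WT. In Rsf1Δ they stood at 8.12 and 7.69 CPM and at 14.1 and 13.9 CPM, below the lowest of the other WT libraries (14.2 and 15.3 CPM). The log2 fold changes were −1.46 (SE 0.09, adjusted p = 1.19e-12) and −1.16 (SE 0.09, adjusted p = 1.55e-10). The Nodal co-receptor gene Tdgf1 had a log2 fold change of 0.22, and Inhbb, an activin subunit, one of 0.80 (adjusted p = 5.93e-11). Id2, a BMP target, was decreased 2.15-fold and fell short of the fold minimum without Rsf1Δ replicate 2 (log2 fold change −0.98). In the FGF/ERK list Dusp4, Jun and Fgfr2 were decreased (3 of 20), with Rsf1Δ means below all 11 WT libraries for Dusp4 and Fgfr2 and inside their range for Jun. The ERK feedback genes Etv5 and Spry2 had log2 fold changes of 0.12 and −0.08.

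None of the 22 core and naive pluripotency genes was a DEG by edgeR or DESeq2 at the fold minimum, with log2 fold changes from −0.41 to 0.93 and a median of 0.34. At an adjusted p below 0.01 with no fold minimum, 15 of them were higher and 2 lower, where 7.45% of all genes tested were higher and 13.1% lower (16 higher and 3 lower at an unadjusted p under 0.05). Pou5f1 (OCT4) stood at 1076 and 1048 CPM in WT and 1311 and 1397 CPM in Rsf1Δ (log2 fold change 0.35, SE 0.07, adjusted p = 2.34e-04). Sox2 had a log2 fold change of 0.33 and Tbx3 one of 0.93 (adjusted p = 1.03e-10). The list summed to 6439 and 6171 CPM in WT of batch A and 7953 and 7979 CPM in Rsf1Δ, and the other WT libraries ran from 7007 to 8212 CPM, so batch A WT was the low group. Dnmt3a, a de novo DNA methyltransferase, was below the fold minimum with a log2 fold change of 0.88 (SE 0.06), and its 358 and 379 CPM in Rsf1Δ were above every WT library (198 and 202 CPM in batch A, 130 to 193 CPM elsewhere).

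The 102 increased genes made up 0.65% of the genes tested. Stra8, a retinoic acid-induced gene of meiotic entry, stood at 8.46 and 8.40 CPM in WT and 51.6 and 47.4 CPM in Rsf1Δ (log2 fold change 2.55, SE 0.12, adjusted p = 2.12e-15). Dazl, a germ cell RNA-binding protein, went from 15.2 and 13.5 CPM to 48.5 and 38.8 CPM (log2 fold change 1.604, SE 0.10, adjusted p = 1.85e-12). Both were above all 11 WT libraries, which ended at 19.8 and 23.7 CPM. Dazl was the 1 DEG of 25 germline genes, of which 11 were higher and 1 was lower at an adjusted p below 0.01 with no fold minimum (7.45% and 13.1% of all genes tested), and the germ cell helicase gene Ddx4 had a log2 fold change of 0.12. Zscan4d, a marker of the 2-cell-like state, stood at 0.758 and 1.21 CPM against 3.09 and 2.61 CPM (log2 fold change 1.54, SE 0.36, adjusted p = 0.0016), above all 11 WT libraries and the 1 DEG of 8 genes of that state, and its near copies leave its own level uncertain. Zscan4d lost its call without Rsf1Δ replicate 1 (adjusted p = 0.0211) or WT replicate 1 (adjusted p = 0.0453). Cenpm, a centromere protein, rose from 36.2 and 35.9 CPM to 91.6 and 85.1 CPM (log2 fold change 1.29, SE 0.10), and the other WT libraries ended at 66.9 CPM. It was the 1 DEG of the 26 centromere genes. Lrrn2, a leucine-rich repeat membrane protein, stood at 5.70 and 5.08 CPM against 22.7 and 23.6 CPM, and Ankrd44 at 5.86 and 5.51 CPM against 19.4 and 22.4 CPM, both above the other WT libraries. LOC666331, Cfap99 and Egr4 had the largest log2 fold changes among increased genes averaging at least 10 counts (3.61, 3.05 and 2.86), and all 3 stood below 0.2 CPM in WT of batch A, with Rsf1Δ means above all 11 WT libraries.

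Of the lists of general cell functions, those of ribosomal proteins, oxidative phosphorylation, the proteasome, replication-dependent histones, cholesterol, ATF4 and p53 held no DEG by edgeR or by DESeq2. The hypoxia and glycolysis list held 1 of 24, P4ha1, a collagen prolyl hydroxylase subunit (log2 fold change −1.22, adjusted p = 2.98e-13), whose 72.1 and 64.2 CPM in Rsf1Δ lay inside the 49.2 to 154 CPM of the other WT libraries, and 5 of its genes were higher and 3 lower at an adjusted p below 0.01. At an adjusted p below 0.01 with no fold minimum, where 7.45% of all genes were higher and 13.1% lower, 7 of 83 cytosolic ribosomal protein genes, 14 of 81 oxidative phosphorylation genes and 4 of 38 proteasome genes were higher, and none was lower. By the same measure 0 of 63 replication-dependent histone genes were higher and 1 was lower, 1 of 21 cholesterol genes was higher and 1 lower, and 5 of 19 ATF4 targets were higher and 1 lower. Of 21 p53 targets, 2 were higher and 9 lower. At an unadjusted p under 0.05, where 17.6% of all genes were higher and 21.8% lower, the counts of genes higher and lower were 16 and 1 (ribosomal), 33 and 0 (oxidative phosphorylation), 8 and 0 (proteasome), 3 and 1 (histone), 5 and 4 (cholesterol), 8 and 1 (ATF4) and 3 and 11 (p53). The ribosomal protein genes summed to 26201 and 25347 CPM in WT and 27524 and 27083 CPM in Rsf1Δ, with 27183 to 33275 CPM in the other WT libraries, so batch A WT was the low group here too.

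Genes of the Y chromosome were at or near 0 in Rsf1Δ. Eif2s3y, a translation factor subunit, had 1707 and 1514 counts in WT and 0 and 0 in Rsf1Δ, which is at least 531-fold lower with a floor of 3 counts per library. Uty, a histone demethylase homologue, had 829 and 788 counts against 0 and 0 (at least 267-fold lower), and the RNA helicase gene Ddx3y had 1611 and 1612 counts against 1 and 1. Uba1y had 41 and 44 counts against 0 and 0 (at least 14.1-fold lower). None of the 9 X-linked partners of these genes was a DEG by edgeR or DESeq2 (1 higher and 0 lower at an adjusted p below 0.01, 3 higher and 0 lower at an unadjusted p under 0.05). These 4 genes are outside the 806 genes decreased elsewhere and outside the shares by protein start.

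The run on chromosome 6, which spans 2.51 Mb of mm10, held 35 tested genes, and all 35 had log2 fold changes below 0. Of these, 15 were decreased DEGs (42.9%), 31 passed an adjusted p of 0.01 and 30 had Rsf1Δ means below all 11 WT libraries (33 below the 9 without batch C). The values clustered near a log2 fold change of −1, with a median of −0.97 and 23 of 35 between −1.3 and −0.7. Genes of unrelated function lay side by side in it, such as Kcmf1, a ubiquitin ligase gene that stood at 142 and 139 CPM against 70.9 and 65.7 CPM (log2 fold change −1.04, or no call at −0.98 without Rsf1Δ replicate 2 and at −0.99 without batch C), and Tgoln1, a trans-Golgi protein gene, at 111 and 114 CPM against 42.4 and 46.0 CPM (log2 fold change −1.34). St3gal5, a ganglioside sialyltransferase gene, fell further, from 9.37 and 10.2 CPM to 2.58 and 2.65 CPM. The 10 tested genes on either side had a median log2 fold change of −0.0021, and 2 of these 20 were DEGs. In WstfΔ the 35 genes had a median of −0.10 against the same WT libraries, and in BptfΔ, set against WT of its own batch C, a median of −0.76 with 34 of 35 below 0. The copy number of the region was not tested.

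**Figure D5:**
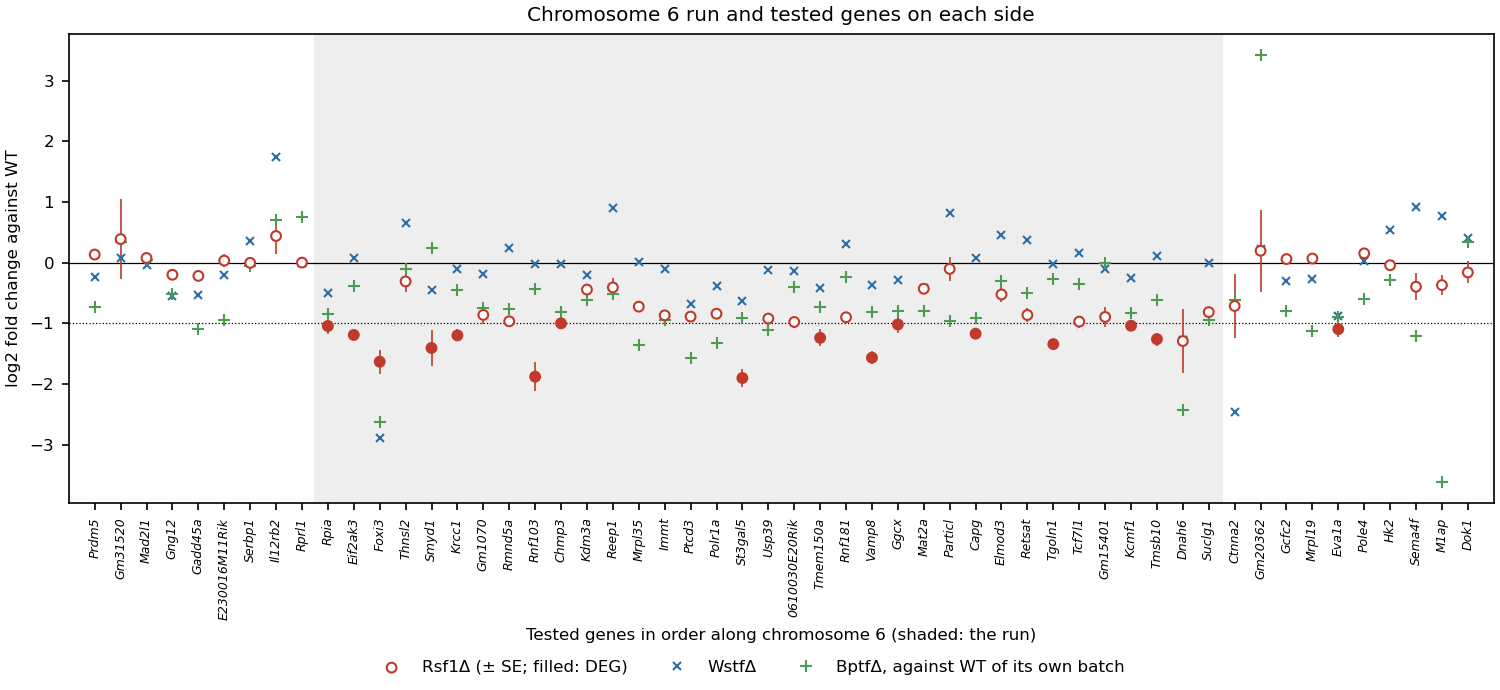
log2 fold change of the tested genes of the chromosome 6 run (shaded) and up to 10 tested genes on each side, in order along the chromosome, for Rsf1Δ (circles with SE, filled for DEGs), WstfΔ (crosses) and BptfΔ against WT of its own batch (plus signs). The Rsf1Δ values sit around −1, the dotted line, in the shaded run with a median of −0.97 and return to near 0 for most genes outside it.

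WstfΔ, the other deletion of batch A, was set directly against Rsf1Δ, since a comparison of each with the same WT libraries would share their deviations. Over all genes 4.62% were lower and 3.16% higher in Rsf1Δ at the DEG thresholds. Of the 806 genes decreased elsewhere, 128 were lower and 68 higher in Rsf1Δ than in WstfΔ, and of the 102 increased genes 26 were higher and 3 lower. The same Rsf1Δ libraries served to choose these genes, so part of the tilt in both sets follows from the choice. For Lefty2 the log2 fold change against WT was −1.46 in Rsf1Δ and 1.601 in WstfΔ, with a difference of −3.06 (adjusted p = 1.67e-19). Lefty1 (−1.87), Krt42 (−2.37), Clic6 (−2.15) and Amn (−1.92) were also lower in Rsf1Δ than in WstfΔ. Higher in Rsf1Δ than in WstfΔ were Zscan4d (3.27), Cenpm (1.53), Lrrn2 (1.52), Stra8 (1.11), Dazl (1.06) and Dnmt3a (1.03). Some genes decreased in Rsf1Δ had lower values still in WstfΔ, with differences of 3.099 for Ankrd1, 2.19 for Acta2, 2.18 for H19, 1.96 for Thbs1 and 1.95 for Tagln. For Gata4 (0.28, adjusted p = 0.071) and Igf2 (0.18, adjusted p = 0.29) no difference between the deletions passed the threshold.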

How the data were processed

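RNA of 24 mouse ES cell samples, poly(A) RNA per the labels, was sequenced, although RNAs without a poly(A) tail were abundant in the 4 libraries of batch C, and the authors deposited a table of counts per gene, made with QuasR (qAlign with the spliced aligner HISAT2) against mm10 and the UCSC knownGene annotation. The submitters' processing notes name bcl2fastq 2.17, HISAT2 and mm10. The labels name a stranded kit, and the counting options and the handling of reads that map to several places are not given in the sources used here. The deposited counts were used as they stand. Gene symbols, classes and coordinates came from GENCODE M21 and RefSeq tables on GRCm38, and a protein's start from the translated transcripts.

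Genes were filtered by expression per genotype (filterByExpr), scaled by TMM and tested with edgeR 4.0.16 (quasi-likelihood, R 4.3.3) in 1 fit over the 24 libraries with terms for batch and genotype, so the spread is shared by all groups and all 5 batches. DEGs had an absolute log2 fold change above 1 and a Benjamini–Hochberg adjusted p below 0.01 over all genes tested. DESeq2 1.42.0 was an alternative. On simulated counts with 200 of 15220 genes changed by 2 on the log2 scale, 200 were recovered with 0 false calls. The changed genes were drawn among well-covered ones, every gene had the same spread, and no batch effect was simulated. The simulation therefore checks the code of the fit and does not show how smaller changes or genes of low level fare. The replicates of each group differed by more than sampling noise (variance 4.58 and 5.77 times that of counting, WT and Rsf1Δ), so none was counted as a repeat.

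The comparison, its members and the 37 gene lists and 34 families were chosen with earlier results of these data known. Genes were named by a rule: the ISWI genes, the 15 largest decreases and 15 largest increases averaging at least 10 counts, in each list the leading DEGs and the most abundant other members, the Y-linked genes, and leading genes of the chromosome 6 run and of each protein class. A comparison of promoter composition over all DEGs was void, since a promoter sequence was at hand for 75.2% of decreased and 69.6% of increased genes. A few genes that the rule names are not reported here. Alternatives were other normalisations, filters, tools, sets of libraries and each library left out.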

Additional observations from a re-analysis of the deposited data

How the results depend on the processing

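The decrease of Rsf1 mRNA kept its direction and its call under each alternative, from −2.34 to −2.18 on the log2 scale over the fits that left out 1 library. The same fits gave 768 to 827 DEGs, 90 to 102 increased and 677 to 725 decreased, each with a lone library assumed to vary like the other groups. Without the batch term there were 134 DEGs (32 increased, 102 decreased), of which 113 were also among the 927, and 91 of these were decreased. In that fit Snord34, increased in the reported fit, had a log2 fold change of −1.25, and the cause was not tested. Testing against the fold minimum itself (glmTreat) gave 268 (13 increased, 255 decreased), and dropping the fold minimum gave 3225 (1168 higher, 2057 lower). Requiring the Rsf1Δ mean to lie outside all 11 WT libraries, a setting chosen after seeing the data, gave 403 (63 increased, 340 decreased). Leaving out batch C, also chosen after seeing the data, gave 875 DEGs, and leaving out both batch C and the batch term gave 168 (39 increased, 129 decreased), of which 136 were among the 927. DESeq2 gave 837 DEGs (833 shared). Library size alone, RLE factors, no filter, a stricter filter, the newer edgeR fit, the 4 or 6 libraries of batch A alone and leaving out Y-linked and chromosome 6 run genes gave 907 to 998.

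Same-numbered Rsf1Δ and WT libraries deviated together with a correlation of 0.181 over genes, and with 2 pairs the labels' numbers were not taken as a pairing. With the replicate block there were 875 DEGs (97 increased, 778 decreased), 872 of them shared, and Rsf1 stood at −2.26. Genes of the lowest levels rest on few counts a library, and 74 named genes changed their call when 1 of the 4 libraries was left out.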
